A study of Rattus norvegicus with 12 samples.

Results

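The 48 genes described here encode the machinery of DNA replication and S phase, out of 32883 genes quantified in cultured neonatal rat cardiomyocytes. They were picked by symbol, with earlier results of these data known, and each of the 48 was found in all 12 libraries under 1 gene identifier. All 48 passed the filter on low values (2 or more libraries at 1 rescaled FPKM or above), as did 13793 genes in all. FPKM counts fragments relative to transcript length and to the total of the library, so levels are per length. A gene's level is the sum over its transcript forms, so levels of genes with more than 1 form compare less safely between genes. FPKM was rescaled here by a factor per library.

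The series title links the elongation factor P-TEFb to the hypertrophic growth of these heart muscle cells. The cells came from Sprague-Dawley rats 1 to 3 days old and were kept first in medium with 7% serum. All 6 groups had received cytosine arabinoside (AraC, 10 µM), a nucleoside that blocks DNA synthesis and so removes dividing cells, and all were without it for the last 24 h before treatment. Treatment for 24 h was with acetic acid as the vehicle, with 100 nM of the peptide endothelin-1 (ET-1), which acts on endothelin receptors, or with 10 µM of phenylephrine (PE), which acts on alpha-1 adrenergic receptors, and each was given with DMSO or with JQ1 (1 µM). JQ1 is a small molecule that displaces BET proteins from acetylated chromatin. Each group held 2 libraries, numbered 1 and 2. Whether these came from separate cultures or animals is not stated in the labels. A p-value here therefore reflects the spread between libraries of the same group, pooled over the 6 groups, which may be technical.

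Replication starts at origins bound by the origin recognition complex (ORC). Before S phase, CDC6 and CDT1 load the ring-shaped MCM2-7 helicase there, geminin blocks CDT1 once S phase has begun, and CDC45 and the GINS complex then switch the helicase on. Primase and DNA polymerases copy the strands, held by the PCNA clamp that replication factor C (RFC) loads, while RPA covers single strands and ribonucleotide reductase supplies deoxynucleotides. Many of these genes are textbook targets of E2F factors. Rodent cardiomyocytes largely leave the cell cycle in the first weeks after birth.

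The libraries carried 2.341 to 2.965 Gb of coverage. The lowest depth of any of the 48 genes in any library was 1.23 reads per base, at Cdc45, and 29 of the 48 were covered at 10 or more per base in every library. Of 10 listed cardiomyocyte markers 9 were matched, all above 1 on average, and they summed to 14040.4 to 30682.3 rescaled FPKM per library. Fibroblast markers summed to 382.8 to 1876.4, smooth muscle and pericyte markers to 388.7 to 877.5, endothelial markers to 6.79 to 19.0 and macrophage markers to 2.95 to 22. The RNA is from whole cultures, so fewer cells of a type and less RNA per cell cannot be told apart.

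The upstream sequences of 5 genes are shown so that the MCM subunits with the largest JQ1 differences (Mcm3, Mcm6 and Mcm5), the one with the smallest (Mcm7) and an ORC subunit that moved the other way (Orc3) can be read side by side. Each is the 250 bases before the RefSeq gene start on the GRCr8 build, 5′ to 3′ on the gene's own strand. Capitals mark E2F-type matches, defined as TTTCCCGC, TTTGGCGC, TTTCGCGC or TTTGCCGC on either strand, with overlap allowed.
Mcm3, chr9:30733747-30733996, minus strand: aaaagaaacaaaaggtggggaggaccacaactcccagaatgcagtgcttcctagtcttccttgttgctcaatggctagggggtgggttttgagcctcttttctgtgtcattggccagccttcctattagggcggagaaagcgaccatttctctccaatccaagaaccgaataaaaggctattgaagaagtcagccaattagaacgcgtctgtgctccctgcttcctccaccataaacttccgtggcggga
Mcm5, chr19:13488563-13488812, plus strand: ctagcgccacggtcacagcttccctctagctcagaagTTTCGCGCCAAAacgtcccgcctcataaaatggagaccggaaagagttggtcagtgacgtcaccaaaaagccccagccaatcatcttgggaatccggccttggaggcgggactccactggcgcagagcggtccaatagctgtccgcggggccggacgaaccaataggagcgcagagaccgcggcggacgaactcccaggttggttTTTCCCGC
Mcm6, chr13:42404353-42404602, minus strand: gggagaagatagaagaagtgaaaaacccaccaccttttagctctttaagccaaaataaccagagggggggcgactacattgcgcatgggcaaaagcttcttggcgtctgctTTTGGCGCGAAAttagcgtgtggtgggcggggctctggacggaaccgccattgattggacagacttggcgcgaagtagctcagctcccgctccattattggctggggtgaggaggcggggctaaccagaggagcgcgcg
Mcm7, chr12:22163179-22163428, minus strand: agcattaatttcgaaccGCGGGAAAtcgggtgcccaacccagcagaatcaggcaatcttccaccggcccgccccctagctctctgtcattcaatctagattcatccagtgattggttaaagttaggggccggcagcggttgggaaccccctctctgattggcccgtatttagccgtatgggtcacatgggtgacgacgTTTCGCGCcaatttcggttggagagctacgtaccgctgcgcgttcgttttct
Orc3, chr5:53977795-53978044, minus strand: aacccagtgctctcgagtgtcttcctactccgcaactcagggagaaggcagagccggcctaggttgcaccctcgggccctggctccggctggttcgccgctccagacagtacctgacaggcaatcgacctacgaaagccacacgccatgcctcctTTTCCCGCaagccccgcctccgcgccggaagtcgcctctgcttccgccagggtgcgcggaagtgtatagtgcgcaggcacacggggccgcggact

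RefSeq promoters were matched for 40 of the 48 genes; Mcm4, Orc1, Orc4, Cdc6, Gins4, Rpa3, Rrm2 and Ccne2 were not matched. An E2F-type match lay in the 250 bases of 10 of the 40 (25.0%), against 498 of 27457 promoters in all (1.81%). Besides the 4 genes shown with capitals above, these were Mcm2, Orc5, Gins1, Gins3, Pola1 and Tyms. The Mcm5 window held matches starting 213, 209 and 8 bases before the start, the Mcm6 window 139 and 135, the Mcm7 window 233 and 52, and the Orc3 window 95. Mcm3, with the largest JQ1 difference of the 48 genes, had no full match in its window but held CCAAT in 3 places. Its window ends in gcggga, the start of GCGGGAAA, which is TTTCCCGC on the other strand. A match running past the gene start was not searched for, so a lack of matches at Mcm3 is not shown. Genes were also split at 2-fold lower with JQ1, by the log2 difference given below. The E2F-type match lay in 5 of the 20 matched genes at least 2-fold lower (25.0%) and in 4 of the 18 less than 2-fold lower (22.2%). CCAAT, searched on both strands, lay in 21 of 40 (52.5%, all promoters 34.3%), in 13 of those 20 (65.0%) and in 8 of those 18 (44.4%). The share was 10.0% against 5.79% for the E-box CACGTG, in 4 genes, and 7.5% against 16% for the cell cycle element TTTGAA, in 3. These are letter matches in a fixed window and do not show binding.

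With JQ1, 42 of the 48 genes fell, 3 rose (Orc2, Orc3 and Orc4) and 3 did not pass the test (Orc5, Pold2 and Rpa1), averaged over vehicle, ET-1 and PE. The test was limma across all genes with Benjamini-Hochberg adjustment and a threshold of 0.05, used throughout. JQ1 changed much of the transcriptome: 60.1% of all genes tested were called, 29.9% lower and 30.2% higher, against 93.8% of the 48. Of all calls 50.3% were higher, a share that was 39.5% on the FPKM as deposited and 36.5% when scaled over genes of at least 400 nt. The median log2 difference of the 48 was -1.02, against 0.02 over all genes tested. By their own log2 differences 25 of the 48 were at least 2-fold lower, a share not computed over all genes. By plain mean levels Rfc4 and Pold1, each 2.04-fold lower, passed this cut too. In 38 of the 48 genes all 6 JQ1 libraries lay below all 6 DMSO libraries, which held for 18.5% of all genes, and Orc4 had all 6 above, which held for 17.9%.

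**Figure D1:**
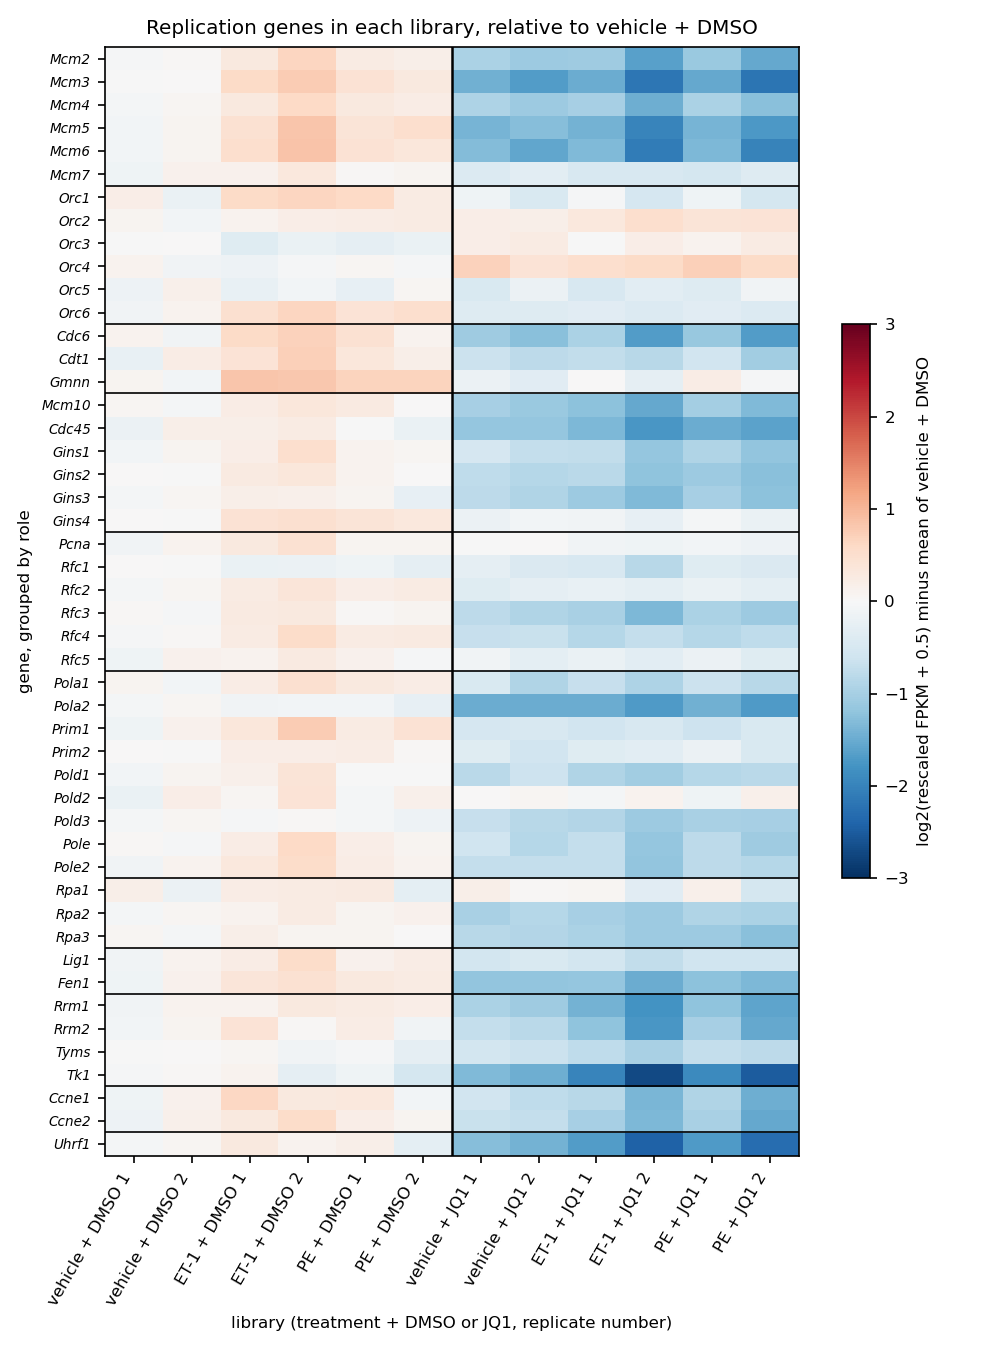
Heat map of the 48 genes (rows, grouped by role) in the 12 libraries (columns), coloured by log2(rescaled FPKM + 0.5) minus the gene's mean in vehicle + DMSO. The 6 JQ1 columns on the right are blue for most genes, with Orc4 in red and Orc2 and Orc3 near white to faintly red.

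The MCM helicase genes held the largest differences, and all 6 fell. Mcm3 stood at 15.9 and 16.2 rescaled FPKM in vehicle, 24.0 and 27.6 with ET-1 and 22 and 19.8 with PE, and under JQ1 at 5.6 and 4.72, 5.44 and 3.2, and 5.21 and 3.12. Every JQ1 library lay far below every DMSO library. The log2 difference was -2.09 ± 0.15 (SE, adjusted p = 1.27e-05), or 4.26-fold lower.

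Mcm6 ranged from 16.2 to 31.6 over the DMSO libraries and from 3.61 to 6.69 over the JQ1 libraries (log2 difference -1.96 ± 0.17, adjusted p = 2.86e-05). Mcm5 ranged from 17.6 to 33.6 and from 4.36 to 7.45 (-1.90 ± 0.12). Mcm2 read 15.2 and 16.1, 19.2 and 24.6, and 18.5 and 17.6 in vehicle, ET-1 and PE, and 7.83 and 7.12, 7.27 and 4.7, and 7.0 and 5.11 with JQ1 (-1.45 ± 0.12). Mcm4 was close to Mcm2, with -1.36 ± 0.10. In none of these did the 6 libraries with JQ1 overlap the 6 without it.

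Mcm7 was the most abundant subunit and had the smallest difference. It stood at 28.2 and 33.7 in vehicle, 33.5 and 38.7 with ET-1 and 31.8 and 32.6 with PE, and under JQ1 at 23.1 and 24.6, 21.9 and 22.1, and 21.2 and 23.6. The groups did not overlap, and the log2 difference was -0.53 ± 0.06 (adjusted p = 0.00017). The 6 subunits form 1 ring with 1 copy of each, and their transcripts were less even under JQ1: Mcm7 over the mean of Mcm2 to Mcm6 was 1.32 to 1.86 in the DMSO libraries and 3.03 to 4.91 in the JQ1 libraries. The highest subunit over the lowest was 1.58 to 2.1 without JQ1 and 4.03 to 7.57 with it.

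**Figure D2:**
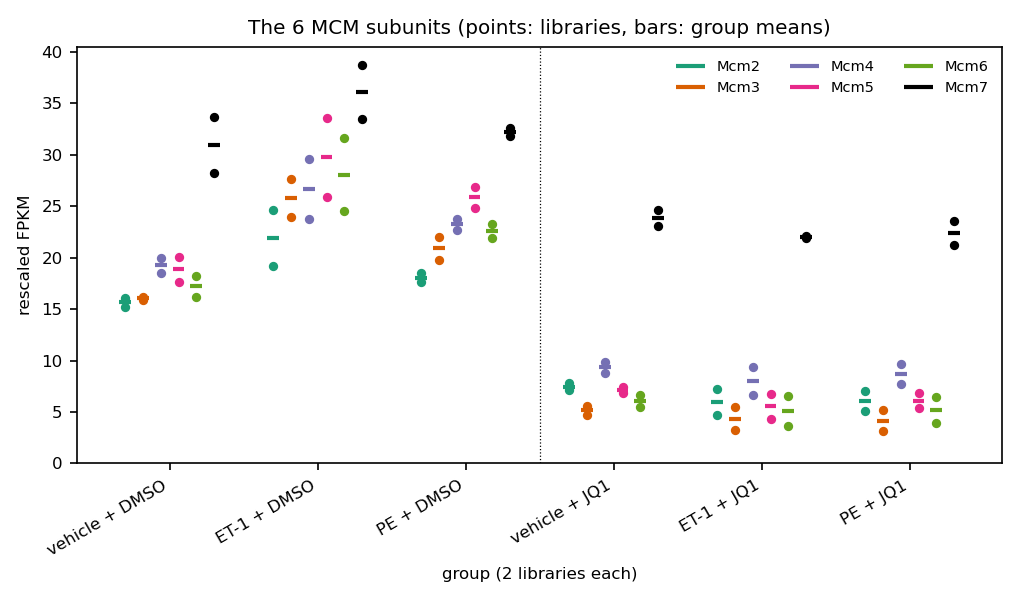
Rescaled FPKM of the 6 MCM subunits in each of the 6 groups, with a point for each library and a bar for the mean of 2. Mcm7 stays between 21.2 and 24.6 in the JQ1 libraries while the other 5 subunits lie at or below 9.9.

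ORC was the group that split. Orc4, an ATPase subunit, stood at 17.3 and 14.8 in vehicle, 14.4 and 15.5 with ET-1 and 16.8 and 15.7 with PE, and under JQ1 at 26.1 and 21.6, 22.9 and 23.9, and 26.5 and 24.0. All 6 JQ1 libraries were the higher ones, and it rose by 0.60 ± 0.07 (adjusted p = 0.000113) with calls in each of the 3 treatments. Orc3 rose by 0.33 ± 0.06 and Orc2 by 0.20 ± 0.05, with overlapping libraries. On the FPKM as deposited and at 400 nt Orc2 was no longer called (0.12 and 0.10, adjusted p = 0.14 and 0.171).

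Orc6 and Orc1 fell. Orc6, the subunit least tightly bound to the complex, read 8.45 and 9.91, 13 and 14.7, and 12.4 and 13.2 in vehicle, ET-1 and PE, and 6.87 and 6.87, 7.08 and 6.75, and 7.12 and 6.71 with JQ1 (-0.73 ± 0.06, adjusted p = 1.9e-05). Without JQ1 the 4 agonist libraries lay above both vehicle libraries, while under JQ1 all 6 lay between 6.71 and 7.12. Orc1, the ATPase subunit that in mammals is degraded in S phase, was low at 1.26 to 2.64 without JQ1 and 0.899 to 1.48 with it (-0.63 ± 0.14). Orc5 (-0.24 ± 0.09) missed the threshold at an adjusted p of 0.0526, and passed it at 0.000559 with the replicate block, which gives each replicate number its own level (all genes 73.5% called with the block). It also passed on the FPKM as deposited (-0.32) and at 400 nt (-0.34). The ratio of Orc4 to Orc1 was 5.73 to 11.7 without JQ1 and 15.4 to 26.7 with it.

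**Figure D3:**
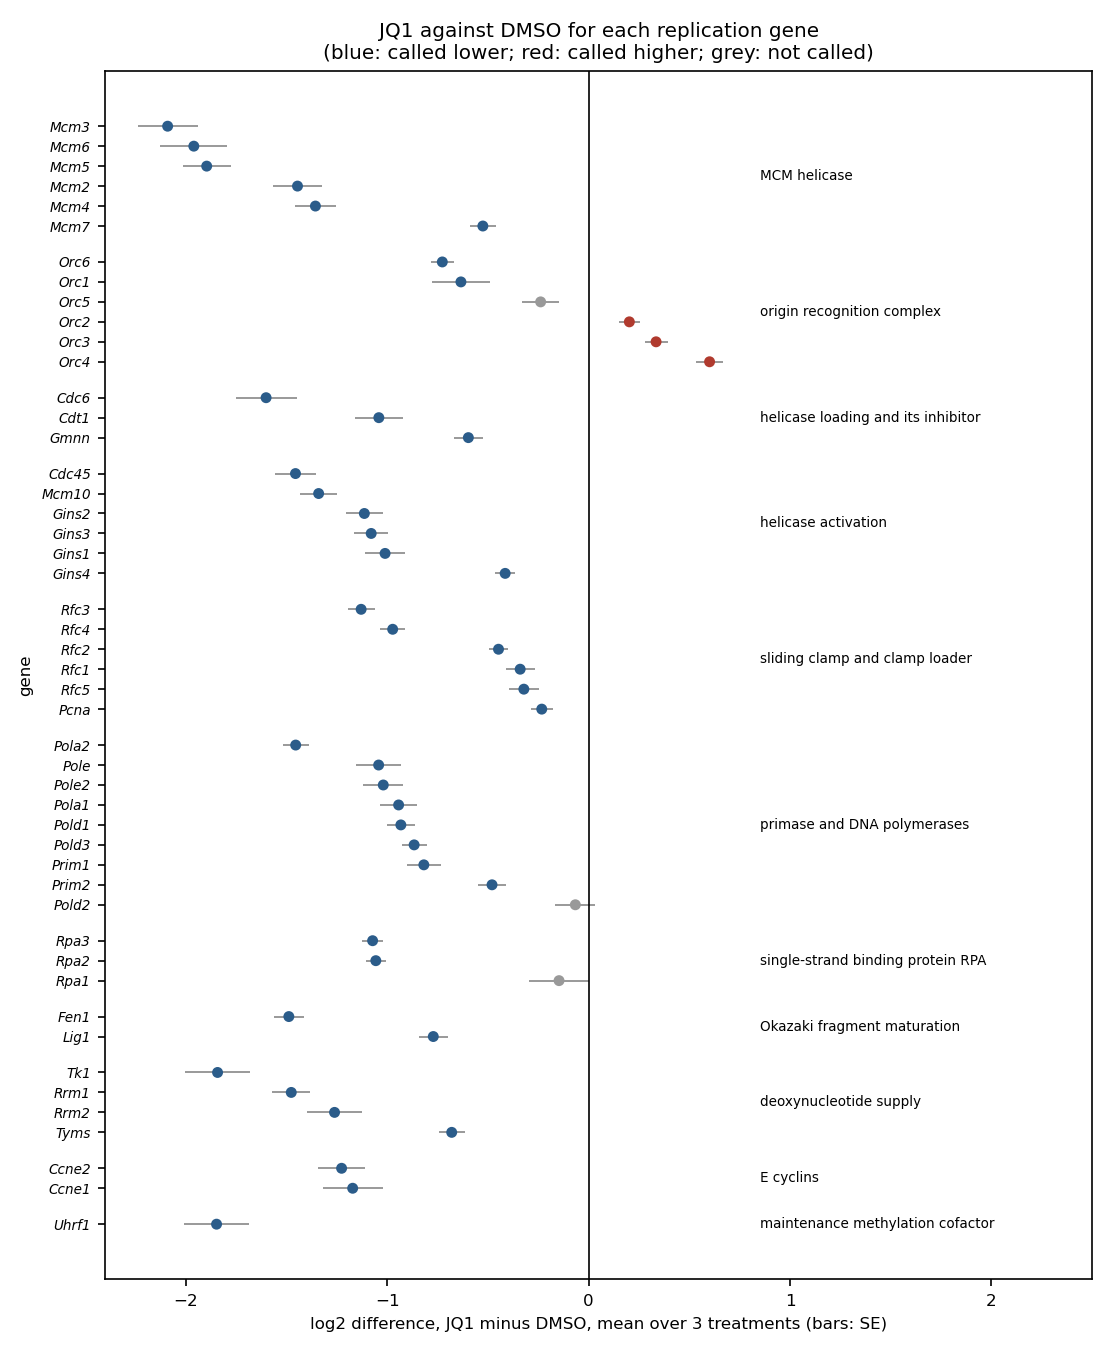
Log2 difference of JQ1 minus DMSO, averaged over vehicle, ET-1 and PE, for each of the 48 genes by role, with bars for the SE. MCM subunits reach -2.09, while Orc2, Orc3 and Orc4 lie to the right of 0.

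The helicase loaders fell with their inhibitor, by unequal amounts. Cdc6, the loading ATPase, stood at 5.81 and 4.99 in vehicle, 8.31 and 9.02 with ET-1 and 7.55 and 5.87 with PE, and under JQ1 at 2.31 and 1.97, 2.54 and 1.35, and 2.18 and 1.33 (-1.60 ± 0.15, adjusted p = 5.15e-05). Cdt1, its partner, ranged from 2.35 to 4.94 without JQ1 and 1.11 to 1.75 with it (-1.04 ± 0.12). Neither gene's groups overlapped. Gmnn, which encodes geminin, had overlapping groups, 14 to 26.8 without JQ1 and 11.6 to 17.4 with it, and a difference of -0.60 ± 0.07 (adjusted p = 0.000173). The ratio of Gmnn to Cdt1 was 4.14 to 7.36 without JQ1 and 8.03 to 12.9 with it.

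All 6 helicase activation genes fell. Cdc45, which joins the helicase at the fork, read 2.42 and 3.17, 3.22 and 3.4, and 2.75 and 2.36 in vehicle, ET-1 and PE, and 0.962 and 0.969, 0.791 and 0.481, and 0.663 and 0.568 with JQ1 (-1.46 ± 0.10, adjusted p = 1.1e-05). These are low levels, where the log2(value + 0.5) scale understates a change. Mcm10, an activation factor outside the helicase ring, ranged from 3.11 to 4.28 and from 0.796 to 1.38 (-1.34 ± 0.09).

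The 4 GINS subunits were uneven as well. Gins4, the most abundant, stood at 12 and 11.7 in vehicle, 16.2 and 16.7 with ET-1 and 15.7 and 14.9 with PE, and under JQ1 at 10.5 and 11.2, 11 and 9.85, and 11.3 and 10.3 (-0.41 ± 0.05). Its JQ1 libraries were all lower, though in vehicle the gap of -0.12 (95% interval -0.32 to 0.07) was not called. Gins1, Gins2 and Gins3 differed by -1.01, -1.11 and -1.08.

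Pcna and its loader differed least among the roles in which all genes fell. Pcna, at 101.9 and 116.8 in vehicle, 133.9 and 149.7 with ET-1 and 116.0 and 116.3 with PE, was the most abundant of the 48 genes, and under JQ1 it stood at 108.4 and 109.4, 101.7 and 99.5, and 103.4 and 98.2. The groups overlapped through vehicle, where the JQ1 difference was -0.00 (95% interval -0.22 to 0.21). It fell with ET-1, by 0.49 ± 0.09 on the log2 scale (adjusted p = 0.0046), and averaged -0.23 ± 0.05 (adjusted p = 0.00612). Rfc3, the loader subunit with the largest difference, read 27.3 and 25.8, 32.2 and 32.7, and 27.3 and 28.3 without JQ1 and 15.1 and 13.9, 13.2 and 10.2, and 13.4 and 12.2 with it (-1.13 ± 0.07, adjusted p = 5.67e-06). Rfc4 followed with -0.97, and Rfc1, Rfc2 and Rfc5 lay between -0.45 and -0.32.

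Of the 9 primase and polymerase genes 8 fell. Pola2, the second subunit of polymerase alpha, was even across treatments: 15.4 and 16.9, 14.9 and 15.1, and 15.1 and 13.5 without JQ1, and 5.44 and 5.47, 5.41 and 4.65, and 5.6 and 4.64 with it. The difference of -1.46 ± 0.06 had the smallest adjusted p of the 48 genes, 2.11e-06. Its catalytic partner Pola1 differed by -0.94, and the ratio of Pola1 to Pola2 was 0.697 to 1.17 without JQ1 and 1.19 to 1.64 with it. The Pola1 level sums a 3757-nt and a 1405-nt form, so the size of this ratio depends on how these forms are counted. Their shares were similar with and without JQ1.

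Prim1, the catalytic primase subunit and the most abundant of this role, stood at 34.7 and 41.1 in vehicle, 47.9 and 64.3 with ET-1 and 45.2 and 50.8 with PE, and under JQ1 at 26.3 and 26.9, 25.0 and 26.8, and 24.4 and 27.5 (-0.82 ± 0.09). The JQ1 libraries all lay lower. Prim2 differed by -0.48, Pold1 by -0.93, Pold3 by -0.87, Pole by -1.04 and Pole2 by -1.02. Pold2, an accessory subunit of polymerase delta, was not called, at -0.07 (95% interval -0.29 to 0.16), with 6.59 to 10.2 without JQ1 and 6.89 to 8.47 with it.

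RPA is a trimer, and 2 of its 3 genes fell. Rpa3, the smallest subunit, read 24.8 and 22.6, 27.0 and 25.2, and 25.0 and 24.0 without JQ1, and 13.1 and 12.7, 12.1 and 10.9, and 10.9 and 9.64 with it (-1.07 ± 0.05, adjusted p = 3.09e-06). Rpa2 was much the same at -1.06. Rpa1, the large DNA-binding subunit, read 48 and 38.0, 50.1 and 50.8, and 51.3 and 34.6 without JQ1 and 48.4 and 44.0, 44.2 and 33.7, and 47.4 and 29.5 with it. These overlap, and it was not called, at -0.15 (95% interval -0.49 to 0.20). In replicate 2 of vehicle + DMSO, PE + DMSO and PE + JQ1, a 5594-nt form was assigned 25.1, 32.9 and 28.2% of Rpa1 FPKM. Elsewhere it held at most 0.715%. Those libraries read low (38.0, 34.6 and 29.5), as did replicate 2 of ET-1 + JQ1 (33.7), where that form held 0.591%. The part of this assignment in the spread was not tested.

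Lagging-strand maturation and nucleotide supply fell throughout. Fen1, the flap nuclease that trims Okazaki fragments, stood at 15.8 and 18.9, 22.2 and 23.9, and 21.3 and 20.6 without JQ1 and 7.39 and 7.35, 7.51 and 5.82, and 7.09 and 6.47 with it (-1.49 ± 0.07, adjusted p = 3.09e-06). Lig1, which seals the nicks, differed by -0.77. Rrm1, the large subunit of ribonucleotide reductase, stood at 75.3 and 87.5, 87.6 and 99.4, and 96.8 and 93.0 without JQ1 and 41.7 and 38.2, 30.3 and 23.0, and 34.8 and 27.0 with it (-1.48 ± 0.09). Neither Fen1 nor Rrm1 had overlapping groups. Rrm2, the small subunit, differed by -1.26, and the ratio of Rrm1 to Rrm2 overlapped, 1.18 to 1.81 without JQ1 and 1.21 to 1.44 with it.

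Tk1, the thymidine kinase of the salvage route, read 20.6 and 21.7, 22.7 and 17.4, and 19.2 and 14.6 without JQ1, and 8.21 and 7.37, 4.98 and 2.8, and 5.24 and 3.32 with it (-1.84 ± 0.16, adjusted p = 3.34e-05). Tyms, which makes thymidylate, differed by -0.68. Uhrf1, which recruits the maintenance DNA methyltransferase to new DNA, read 19.3 and 21.1, 25.0 and 21.7, and 22.7 and 16.5 without JQ1 and 8.0 and 7.19, 6.0 and 3.35, and 5.86 and 3.71 with it (-1.85 ± 0.16). Ccne2 and Ccne1 are the E cyclins that drive entry into S phase. Ccne2 stood at 10.5 and 12.9, 14.4 and 17.2, and 13.4 and 12.4 without JQ1 and 7.15 and 6.88, 5.55 and 4.26, and 5.67 and 3.71 with it (-1.23 ± 0.12), and Ccne1 differed by -1.17 ± 0.15. For Tk1, Uhrf1 and both cyclins the DMSO and JQ1 libraries were fully apart.

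**Figure D4:**
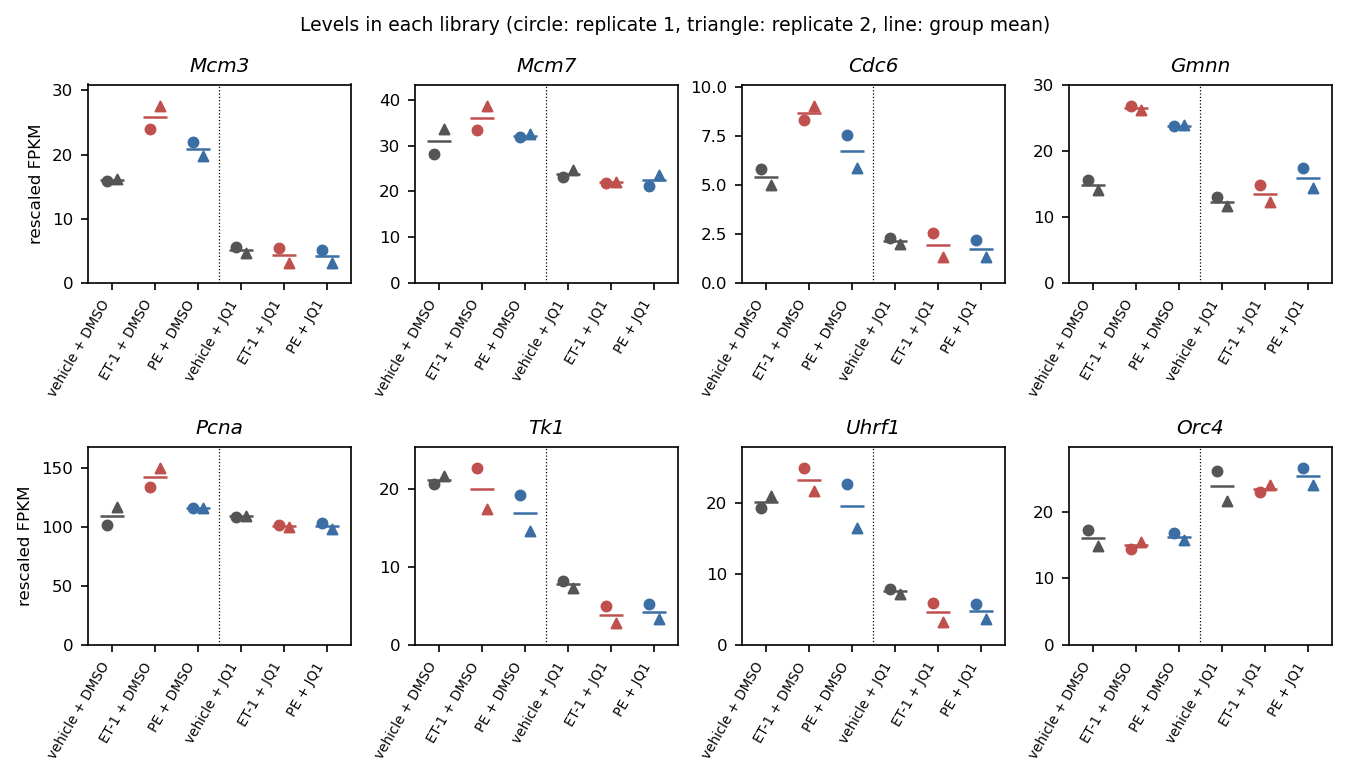
Rescaled FPKM of 8 of the genes in each library (circle for replicate 1, triangle for replicate 2, line for the group mean; each panel has its own axis from 0). Mcm3, Cdc6, Tk1 and Uhrf1 are low in all 6 JQ1 libraries, Mcm7 and Pcna have the smaller gaps, and Orc4 is higher in the JQ1 libraries.

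Each treatment was also read on its own. In vehicle 35 genes fell and 1 rose, with a median of -0.70 (all genes: 32% called, 16.7% lower and 15.3% higher). ET-1 libraries had 42 lower and 2 higher with JQ1, with a median of -1.23 (all genes: 37.5% called, 19.6% lower and 17.9% higher). PE libraries had 39 lower and 2 higher, with a median of -1.03 (all genes: 36.5% called, 19% lower and 17.5% higher). Among the 48 genes, 35 fell in all 3 treatments, 7 in 1 or 2 of them, and 6 in none (Orc2, Orc3, Orc4, Orc5, Pold2 and Rpa1). These counts were not made over all genes, of which at most the 16.7% called lower in vehicle can have fallen in all 3. Pairing libraries by replicate number, the median JQ1 difference was -0.59 and -0.81 in vehicle, -1.02 and -1.42 with ET-1 and -0.98 and -1.04 with PE. Replicate 2 had the larger difference in each treatment. Without replicate 2 of vehicle + DMSO, the vehicle count was 23 of the 48, and 2758 of all genes were called there against 4411 with that library.

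The replicate block added calls in 2 of the treatments. In vehicle 41 of the 48 were called with it (all genes 52.8%), the added ones being Ccne1 (-0.66, adjusted p = 0.0168), Gmnn (-0.26, adjusted p = 0.0295), Orc5 (-0.32, adjusted p = 0.00441) and Rfc1 (-0.36, adjusted p = 0.015) as lower and Orc3 (0.22, adjusted p = 0.0254) as higher. With ET-1 46 were called (all genes 56.9%), adding Orc5 (-0.24, adjusted p = 0.0135) as lower and Orc2 (0.25, adjusted p = 0.0287) as higher. With PE 41 were called (all genes 56.4%). The counts by treatment given above are without the block.

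The difference between JQ1 effects was tested directly. It was called for 0 of the 48 genes and 0 of all 13793 genes (0% called) by limma, for ET-1 against vehicle and for PE against vehicle. At an unadjusted p under 0.05 stood 26 and 7 of the 48 (54.2% and 14.6%) and 616 and 717 of all genes (4.47% and 5.2%), and with the replicate block 0 of the 48 were called in both (all genes 0.0363% and 0.0725%). For ET-1 the JQ1 difference was lower than in vehicle in 44 of the 48 genes, with a median of -0.54 (all genes 0.009, 51.8% above 0). For PE it was lower in 42, with a median of -0.31 (all genes 0.007, 51.3% above 0). Mcm5 had the most negative value for ET-1, -1.003 ± 0.29 (95% interval -1.67 to -0.33, adjusted p = 0.791), and Ccne2 for PE, -0.70 ± 0.28 (95% interval -1.35 to -0.05, adjusted p = 0.948). These comparisons share the vehicle libraries, and their medians combine the agonist differences without JQ1 and with it, given next.

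Without JQ1, both agonists raised Gmnn, Orc6 and Gins4, and no other gene of the 48 was called. Gmnn stood at 15.6 and 14 in vehicle, 26.8 and 26.2 with ET-1 and 23.7 and 23.9 with PE, groups that did not overlap. It rose by 0.82 ± 0.12 with ET-1 (adjusted p = 0.0227) and by 0.66 ± 0.12 with PE (adjusted p = 0.0259). Orc6 rose by 0.57 ± 0.10 (adjusted p = 0.0286) and 0.46 ± 0.10 (adjusted p = 0.0355), and Gins4 by 0.45 ± 0.08 (adjusted p = 0.0352) and 0.35 ± 0.08 (adjusted p = 0.0478). The Gins4 call with PE was lost at a pseudocount of 0.1 (adjusted p = 0.0512), with no filter (0.0552) and with plain moderation (0.0595). These 3 of 48 (6.25%), all higher, stand beside 1.31% of all genes called higher with ET-1 and 2.89% with PE. In either direction 2.87% and 6.07% of all genes were called, and the share for PE is near that of the 48.

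The other genes mostly pointed upward with ET-1 without passing the test. The median over the 48 was 0.29 with ET-1 (40 above 0, all genes -0.02) and 0.12 with PE (36 above 0, all genes -0.01). MCM subunits other than Mcm7 lay at 0.45 to 0.68 with ET-1 and 0.20 to 0.45 with PE. With the replicate block 11 of the 48 were called with ET-1 (all genes 18.4%): Prim1, Rfc4, Rfc2, Pcna, Orc1, Cdc6 and Lig1 joined the 3 as higher and Orc3 as lower. With PE 5 were called (all genes 24%), adding Prim1 as higher and Orc3 as lower.

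The agonist calls depended on the scale. On the FPKM as deposited 0 of the 48 were called with ET-1 and 1, Orc3, with PE as lower, and the 48 split 24 above and 24 below 0 with PE. Scaled over genes of at least 400 nt, Orc3 was the gene called, as lower, with each agonist, and the split with PE was 21 above and 27 below. Gmnn was above vehicle on each scale, by 0.51 to 0.72 on these 2, but missed the threshold (adjusted p = 0.0844 to 0.175). These scales moved the median of all genes to -0.11 and -0.13 (as deposited) and -0.15 and -0.16 (400 nt) for ET-1 and PE. Without either library of vehicle + DMSO, or without either DMSO library of the agonist itself, no gene of the 48 stayed called. Some were still called without any 1 of the other libraries. Calls over all genes were lost as well for ET-1 without either library of vehicle + DMSO. For PE nearly all of them were lost without replicate 2 of vehicle + DMSO or replicate 2 of PE + DMSO.

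**Figure D5:**
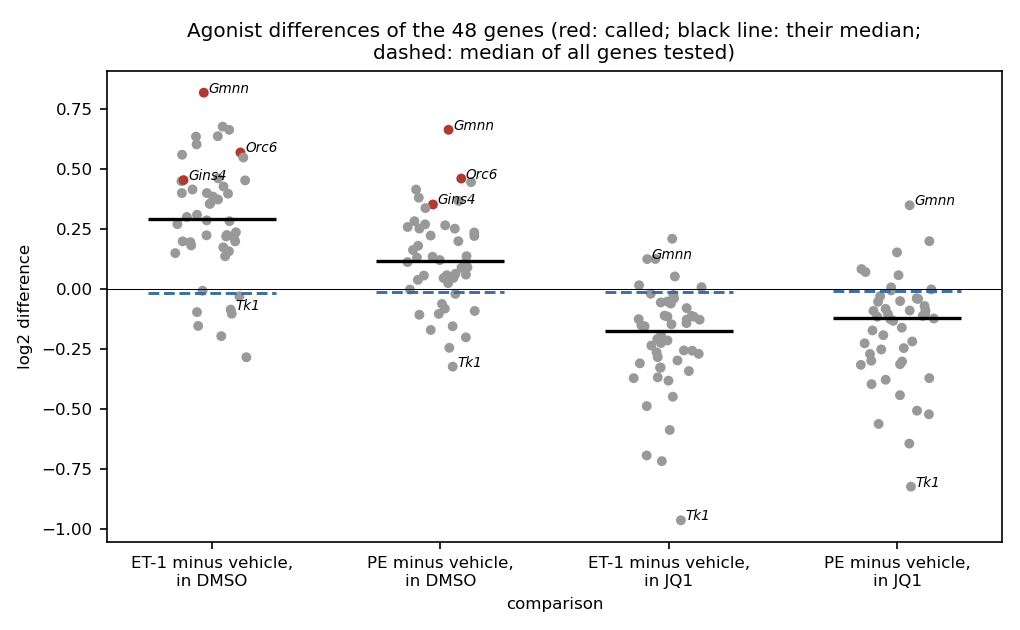
Log2 differences of the 48 genes for ET-1 and PE against vehicle, without JQ1 on the left and with JQ1 on the right (points spread sideways at random; black line, their median; dashed line, median of all genes tested). Gmnn, Orc6 and Gins4 are in red as called without JQ1, and no gene is called with it.

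Between PE and ET-1, 0 of the 48 genes were called by limma, 1 stood at an unadjusted p under 0.05 (206 of all genes) and 0 were called with the block (all genes 0.00725% called, without the block and with it). The median of PE minus ET-1 was -0.19 (all genes 0.003). Both agonists share the vehicle libraries, so their differences from it are given side by side above and are not correlated here.

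Under JQ1, 0 of the 48 genes were called by limma for either agonist (all genes 1.36% for ET-1 and 0.718% for PE; 10 and 7 of the 48 at an unadjusted p under 0.05, or 20.8% and 14.6%, against 17.1% and 16.3% of all genes). The medians were -0.17 for ET-1 and -0.12 for PE, with 42 and 41 of the 48 below 0. Over all genes they were -0.011 and -0.007, with 48.1% and 48.6% above 0. With the replicate block 3 of the 48 were called for each. For ET-1 these were Tk1 (-0.96, adjusted p = 0.0151), Rrm2 (-0.72, adjusted p = 0.0343) and Rrm1 (-0.59, adjusted p = 0.0487), all lower (all genes 11.6%). For PE they were Tk1 (-0.82, adjusted p = 0.0254) and Rpa3 (-0.31, adjusted p = 0.0173) as lower and Gmnn (0.35, adjusted p = 0.0356) as higher (all genes 12.1%). Gmnn with PE was thus above vehicle both with and without JQ1 in that fit.

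Other genes of the replication and cell cycle network were read from lists chosen by function, with earlier results of these data known. They are to be set beside the 60.1% of all genes called for JQ1, 29.9% lower and 30.2% higher. Of 13 origin firing genes tested, 11 fell and 2 rose with JQ1, averaged over treatments (median -0.79), led by Mtbp (-1.34), a partner of the firing factor Treslin, and the phosphatase gene Cdc25a (-1.04). Among 12 fork protection and checkpoint genes 7 fell and 1 rose (median -0.84), among them Clspn (-1.30), which encodes the checkpoint adaptor claspin. Licensing turnover, 11 genes, had 8 lower and 2 higher (median -0.72), led by Cdc20 (-1.51) and Dtl (-1.31), the latter a substrate receptor for CDT1 degradation. Of 17 mitosis genes 16 fell and 0 rose (median -0.78), led by Nusap1 (-1.37) and Cdca8 (-1.32).

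Of 16 other replication subunits 8 fell and 5 rose (median -0.18), led by the loader gene Dscc1 (-1.53) and the topoisomerase gene Top2a (-1.12). Of 11 chromatin assembly genes 8 fell and 0 rose (median -0.28), led by Mms22l (-1.41) and the histone chaperone gene Asf1b (-1.37). Other nucleotide supply genes, 17 tested, had 5 lower and 7 higher (median 0.02), led by Dctd (-1.93) and Dut (-1.16), both of which feed thymidylate synthesis.

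Of 16 E2F and pocket protein genes 8 fell and 2 rose (median -0.38), led by Lin9 (-1.59), a subunit of the DREAM and MuvB complexes, and the repressor gene E2f8 (-1.41). E2f1 had no match by symbol and is not among the 16, and Chek1, Ccnb2 and Dna2 are missing from the lists above for the same reason. The p53 target list ran the other way, with 8 of 14 higher and 0 lower (median 0.37), led by Gadd45a (1.29) and Tp53inp1 (0.92). The MYC network had 4 of 8 higher and 0 lower (median 0.29), led by Mxi1 (1.54) and Mxd1 (1.08), which encode antagonists of MYC. The shares called in either direction, 62.5% for the E2F list, 57.1% for the p53 list and 50% for the MYC list, were near or below that of all genes. The p53 and MYC calls were all higher, however, and 30.2% of all genes were called higher. In the E2F list 8 of 16 were called lower and 2 higher, and 29.9% of all genes were called lower. With the replicate block (all genes 73.5%) every one of these JQ1 calls was kept, and no list gained more than 2.

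Few genes of these lists were called with the agonists: 5 of 135 with ET-1 (3.7%, all genes 2.87%) and 14 with PE (10.4%, all genes 6.07%). Of all genes 1.31% were called higher with ET-1 and 2.89% with PE. Without JQ1 ET-1 raised Cdc7 (0.60), the kinase that fires origins, Donson (0.52), Nme1 (1.09) and Umps (0.58), and lowered Mxi1 (-1.10). PE raised Cdc7 (0.48), Nme1 (1.06), Umps (0.55), Ctps1 (0.39) and E2f5 (0.48), the p53 target Btg2 (0.91), and 5 of 17 mitosis genes, Anln (0.86), Prc1 (0.60), Aurka (0.46), Cdca8 (0.43) and Ccnb1 (0.42). It lowered Rb1 (-0.34), Mnt (-0.43) and Mxi1 (-1.14). On the FPKM as deposited 2 of the 5 (Mxi1 and Nme1) and 4 of the 14 (Anln, Btg2, Mxi1 and Nme1) were still called, and Rb1 as well at 400 nt. Without replicate 1 or without replicate 2 of vehicle + DMSO, 0 of the 5 were called in both fits, and 2 (Mxi1 and Nme1) and 1 (Mxi1) of the 14. Leaving out an ET-1 + DMSO library left 1 and 0 of the 5, and a PE + DMSO library 2 and 0 of the 14. With the replicate block 24 and 26 of the 135 were called (all genes 18.4% and 24%), the 5 and the 14 among them.

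Markers of other cell types moved with JQ1 as well. The summed fibroblast markers, all 10 above 1, stood at 0.646 to 0.768 of the DMSO library with the same treatment and replicate number; 9 of the 10 were below 0. Of these 10, 0 were called by limma, 0 also at an unadjusted p under 0.05, but with the replicate block 8 were called lower and 1 higher, led by Postn (-1.35) and Col3a1 (-1.05). The ratio was 0.48 to 0.678 for macrophage markers (2 of 10 above 1 on average, Cd163 at 0 in every library), 0.742 to 1.25 for endothelial markers (2 of 9), 0.561 to 1.02 for smooth muscle and pericyte markers (7 of 8) and 1.1 to 1.43 for cardiomyocyte markers. Called lower without the block and with it were 4 and 7 of 8 smooth muscle and pericyte markers, 2 and 5 of 5 macrophage markers tested, 1 and 4 of 5 endothelial markers tested (1 higher in both fits) and 2 and 4 of 9 cardiomyocyte markers (1 higher in both fits). In each group replicate 1 had the larger fibroblast sum, 1876.4 against 721.3 in vehicle + DMSO. Of the 48 genes, replicate 1 was the higher in 15 in vehicle, 8 with ET-1 and 32 with PE without JQ1, and in 31, 39 and 39 with it. The part of other cell types in the differences of the 48 genes was not tested.

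Transcript forms were compared as shares of a gene's FPKM for genes with more than 1 form, as a description. The 2148-nt form of Pola2 made up 0.115 to 6.94% of its FPKM in the DMSO libraries and 8.23 to 15.9% in the JQ1 libraries, and the 2266-nt form the rest. For Pola1 the 1405-nt form held 52.9 to 56.9% without JQ1 and 52.3 to 55.8% with it. The 3757-nt form held 43.0 to 46.9% and 44.2 to 47.7%, and the 4020-nt form at most 0.166%. Whether the 1405-nt and 3757-nt forms are parts of 1 transcript, which the sum would count more than once, was not tested. The 2877-nt form of Cdc6 was 98.7 to 100% in all libraries except replicate 1 of vehicle + DMSO, where it was 45.6%. Shares of near-identical forms rest on how reads were assigned between them.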

How the data were processed

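RNA was rRNA-depleted and made into stranded libraries, per the labels' protocols. The submitters' processing notes name StringTie 1.3.4d, STAR 2.7.1a, Trim Galore 0.6.0 and, with build rn6 (Rnor_6.0), DESeq2 1.24.0. No source used here gives strand settings, and overlapping genes are therefore uncertain. The deposited tables hold 41078 transcripts with FPKM and coverage (a signal, mean reads per base), per the file headers; coverage served for depth only. Gene sums of FPKM were divided by median-of-ratios factors of 0.873 to 1.127, computed on the 15551 genes above 0 in all 12 libraries. limma 3.58.1 (R 4.3.3, trended, robust) was fitted to log2(rescaled FPKM + 0.5) with 6 group means, adjusting by Benjamini-Hochberg over 13793 genes. The script was tested on simulated data. Tables and figures used Python 3.11.15, pandas 2.3.3 and matplotlib 3.10.9.

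Same-numbered libraries deviated together (correlations 0.16 to 0.67 over 15 pairs of groups), a pairing seen in the data and not the labels. The main fit left this pairing out, and calls are from that fit unless the replicate block is named. The block, which takes the pairing into account, was fitted as an alternative. Without JQ1 it took calls of the 48 genes from 3 to 11 for ET-1 and from 3 to 5 for PE. Under JQ1 it took them from 0 to 3 for each agonist. Values with the replicate block are printed beside the calls of the 48 genes that it changes, and as counts for the other lists. Values per library are given for the most abundant gene and the gene with the largest JQ1 difference of each role, and for genes called with an agonist; in other lists, differences are given for the 2 largest and those called with an agonist. A gene that this rule names is not reported here. Alternatives were the pseudocount, filter, scaling, block, moderation, libraries fitted and each library left out. The 48 genes and the lists were chosen with earlier results of these data known.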

Additional observations from a re-analysis of the deposited data

How the results depend on the processing

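The count of the 48 genes called for JQ1 averaged over treatments was 45 to 46 without each library in turn and 46 to 47 with the block as well. Without 1 library the counts were 23 to 37 for JQ1 in vehicle (30 to 42 with the replicate block), 40 to 44 with ET-1 and 37 to 41 with PE. For ET-1 against vehicle without JQ1, against 3 called, 11 were called with the replicate block, 0 on FPKM as deposited, 1 scaled over genes of at least 400 nt, 0 with only the compared libraries fitted and 0 to 3 without 1 library; without 1 library and with the block the count was 2 to 16, among them 5 and 9. For PE the counts were 5, 1, 1, 0, 0 to 3 and 1 to 7. Under JQ1 the replicate block gave 3 for ET-1 (0 to 7 without 1 library, among them 1, 2 and 6) and 3 for PE (0 to 6, among them 2 and 4). The block moved no other count of the 48 genes by over 1.5 times; over all genes it took the calls from 4411 to 7279 for JQ1 in vehicle, 5168 to 7849 with ET-1, 5030 to 7782 with PE, 396 to 2537 and 837 to 3314 for ET-1 and PE against vehicle, and 187 to 1601 and 99 to 1664 under JQ1. On FPKM as deposited, the share of all genes called higher among calls for JQ1 went from 50.3% to 39.5%, and to 36.5% scaled over genes of at least 400 nt, with 43 of the 48 lower and 2 higher in both. The same 2 scales took that share from 47.9% to 31.3% and 28.3% for JQ1 in vehicle, from 47.8% to 31.9% and 32.2% with ET-1 and from 48% to 38.7% and 35.9% with PE. For the agonists it went from 45.5% to 42.7% and 26.8% (ET-1) and from 47.6% to 35.3% and 25% (PE), and under JQ1 from 23.5% to 36% and 18.9% (ET-1) and from 53.5% to 71% and 49.4% (PE).

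Sign changes occurred for JQ1 in 3 genes near 0 where they were not called. In vehicle, Pold2 was -0.052 on FPKM as deposited and -0.074 at 400 nt, and Rpa1 -0.007 at 400 nt. Without 1 library, in vehicle, Pold2 ranged from -0.151 to 0.228, Rpa1 from -0.057 to 0.279 and Pcna from -0.101 to 0.095; with PE, Rpa1 ranged from -0.51 to 0.168 and Pold2 from -0.169 to 0.110. With the replicate block as well, signs changed in vehicle for Pold2 (-0.047 and -0.075), Rpa1 (-0.014) and Pcna (0.087 and 0.016), and with PE for Rpa1 (0.029). The cause was not tested. With 2 libraries a group, a lone library left in a group is assumed to vary like the others. The lowest coverage, 1.23 reads per base at Cdc45, limits the precision of the lowest genes.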
